A study of Mus musculus with 6 samples.

Results

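The 10 genes described here are cell-cycle inhibitors and p53 targets: the Cip/Kip inhibitors Cdkn1a and Cdkn1b, the INK4 family genes Cdkn2a, Cdkn2b, Cdkn2c and Cdkn2d, the transcription factor gene Trp53, its targets Mdm2 and Ccng1, and the retinoblastoma gene Rb1. They were taken as a list of gene names, and all 10 were found among the 24393 genes listed in the count files. RNA was sequenced from 6 libraries of KH2 mouse embryonic stem cells (strain C57/BL/6 in the labels), 3 labelled CONTROL and 3 labelled HOXA13. KH2 cells carry a doxycycline-responsive transactivator and a docking site for a transgene. In the HOXA13 cells, the transgene was human HOXA13 with a FLAG tag, and these cells came from selected clones; what the CONTROL cells carried in its place was not given in the sources used here. All 6 cultures were differentiated over M15 feeder cells, which derive from mesoderm, in a medium that lacked LIF and held Noggin, CHIR, Activin-A and basic fibroblast growth factor. Exposure to doxycycline (1.25 µg/ml) began on day 4 and went on through a sort for CXCR4+/E-cadherin+ cells on day 6, and the RNA was taken 1 day after the sort. The comparison asks which transcripts differ when HOXA13 is expressed in such endoderm cultures.

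The cell cycle leaves G1 when cyclin D with Cdk4 or Cdk6, and then cyclin E with Cdk2, phosphorylate Rb1 and its relatives and free the E2F factors. The INK4 proteins bind Cdk4 and Cdk6, whereas the Cip/Kip proteins act mainly on the Cdk2 complexes. The protein p53, from Trp53, is controlled chiefly through its stability, and it activates Cdkn1a, which arrests the cycle, Mdm2, which marks p53 itself for degradation, and Ccng1. The Cdkn2a locus also encodes Arf, which holds Mdm2 back, so that locus feeds both the Rb1 and the p53 arm. Embryonic stem cells are known for a very short G1 phase and for little INK4 expression, and both change as they differentiate.

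The libraries held 12279884 to 17331638 counts. Values below are normalised CPM, counts relative to the library total after scaling by the trimmed mean of M-values, and 3 counts, the smallest level read here, correspond to 0.176 to 0.240 CPM. A row listed under the human identifier ENSG00000106031, which the files do not pair with a gene name, held 192, 449 and 398 CPM in the HOXA13 libraries and no count in CONTROL, while mouse Hoxa13 reached at most 0.709 CPM in any library. CONTROL replicate 2 stood apart from its group. Its rank correlation (Spearman's rho over 13600 genes) with the other CONTROL libraries was 0.908 and 0.931, while CONTROL replicates 1 and 3 reached 0.977 with each other and the HOXA13 libraries 0.963 to 0.986 among themselves. With the HOXA13 libraries CONTROL replicate 2 reached 0.961, 0.952 and 0.951, higher than with either library of its own group. Markers of definitive endoderm were low, 12 of them summing to 73.9 to 189 CPM. Cer1 had no count in any library, Sox17 and Foxa2 were at 5.04 CPM or less, and Cxcr4, one of the sorting markers, was between 2.25 and 11.3 CPM, whereas Cdh1 (E-cadherin) was between 192 and 1893 CPM. Of the other definitive endoderm markers, Eomes reached 24.4 to 111 CPM, Gata4 13.1 to 31.9 CPM and Gata6 5.69 to 35.8 CPM. In such bulk samples, fewer cells of a type and less RNA per cell cannot be told apart.

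Sequence around the start sites was available for 9 of the 10 genes in 12 RefSeq windows, each from 250 bases before to 50 bases after a start (GRCm38.p6, a later build than the mm9 of the counts). The 4 sequences below are the 250 bases before the start, written 5′ to 3′ along the gene. The first pair is shown because those are the members with the p53 motif in tandem, the third because Mdm2 is the member that feeds back on p53, and the last because Cdkn1b was the member whose groups did not overlap. Capitals mark the p53 half-site (a 10 base motif) for Cdkn1a, Ccng1 and Mdm2 and the CCAAT box for Cdkn1b.
Cdkn1a: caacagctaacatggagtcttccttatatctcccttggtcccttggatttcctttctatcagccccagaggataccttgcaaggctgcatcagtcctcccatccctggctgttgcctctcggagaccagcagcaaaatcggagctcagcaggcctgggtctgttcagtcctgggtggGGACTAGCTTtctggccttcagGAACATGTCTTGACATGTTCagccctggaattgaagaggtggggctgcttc
Ccng1: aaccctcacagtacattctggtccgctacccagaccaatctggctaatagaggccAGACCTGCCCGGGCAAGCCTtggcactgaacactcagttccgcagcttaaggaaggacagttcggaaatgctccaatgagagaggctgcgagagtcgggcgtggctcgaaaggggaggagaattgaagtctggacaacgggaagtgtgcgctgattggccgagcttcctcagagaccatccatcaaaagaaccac
Mdm2: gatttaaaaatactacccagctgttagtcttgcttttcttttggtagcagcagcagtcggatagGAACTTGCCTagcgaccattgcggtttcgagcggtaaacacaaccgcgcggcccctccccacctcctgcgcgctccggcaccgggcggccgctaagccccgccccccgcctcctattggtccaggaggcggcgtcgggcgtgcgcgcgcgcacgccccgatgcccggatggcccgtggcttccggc
Cdkn1b: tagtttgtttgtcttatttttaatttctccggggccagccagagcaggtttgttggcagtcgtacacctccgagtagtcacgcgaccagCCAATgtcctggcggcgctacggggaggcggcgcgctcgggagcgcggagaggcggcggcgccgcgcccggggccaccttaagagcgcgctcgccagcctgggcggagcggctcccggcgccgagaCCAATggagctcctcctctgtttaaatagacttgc

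These stretches lie at chr17:29090729-29090978, plus strand for Cdkn1a (the more upstream of its 2 starts), chr11:40755287-40755536, minus strand for Ccng1, chr10:117710759-117711008, minus strand for Mdm2 and chr6:134920151-134920400, plus strand for Cdkn1b. Cdkn1a was the member with 2 half-sites without a mismatch within 13 bases of each other, at bases 73 to 64 and 51 to 42 before the start with 12 bases between them, and a further 10 base stretch with 1 mismatch followed directly at bases 41 to 32. Of 32851 such windows of mouse genes, 0.0731% held a pair without a mismatch. In Ccng1 the pair lay at bases 195 to 176 with no base between the half-sites and 1 mismatch, and 1.09% of all windows held a pair with up to 1 mismatch. Mdm2, Trp53 and Cdkn2d each had a single half-site without a mismatch, at bases 186 to 177, 75 to 66 and 102 to 93 before the start, and 8.36% of all windows held at least 1 such half-site. The E2F motif, searched as TTTCCCGC, TTTCGCGC, TTTGCCGC and TTTGGCGC on both strands, occurred in the upstream Cdkn2a window, at bases 99 to 92, and in 2.26% of all windows. The CCAAT box, searched as CCAAT on both strands, occurred before the starts of Cdkn1b, Cdkn2d, Trp53, Mdm2 and Ccng1, and in 37.4% of all windows. The shares of all windows also count matches in the 50 bases after the start. A match describes the letters of these windows and was not tied to binding by any measurement here.

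Levels between genes can be compared only per length, so CPM was divided by the length of each gene's merged exons in kb. On that scale Ccng1 was the most abundant member, with group means of 399 CPM per kb in CONTROL and 301 in HOXA13, followed by Cdkn1a with 343 and 226, Mdm2 with 232 and 194, and Cdkn2a with 145 and 87.3. Trp53 had 68.0 and 62.4, and Cdkn2b had 52.8 and 30.8. These 6 genes formed a chain in which each overlapped the next over the 6 libraries. The lowest library of Cdkn2b, at 17.9 CPM per kb, lay above the highest of Rb1, at 8.16. Rb1 (6.90 in CONTROL against 5.56 in HOXA13) and Cdkn1b (3.71 and 7.33) overlapped each other and exchanged their order between the groups. Cdkn2c (1.83 and 2.47), whose highest library met the lowest of Cdkn1b at 2.87, and Cdkn2d (0.499 and 0.774), which overlapped Cdkn2c, were lowest. Among the inhibitors, Cdkn1a, Cdkn2a and Cdkn2b were the abundant ones, and Cdkn1b, Cdkn2c and Cdkn2d were sparse. The order of the upper genes can depend on the length used. Merged exons were 4045 bases for Trp53, 5070 for Mdm2 and 2223 for Cdkn1a, against 1867, 3132 and 1910 for the longest coding transcript. For Ccng1 both lengths were 3512 bases.

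**Figure D1:**
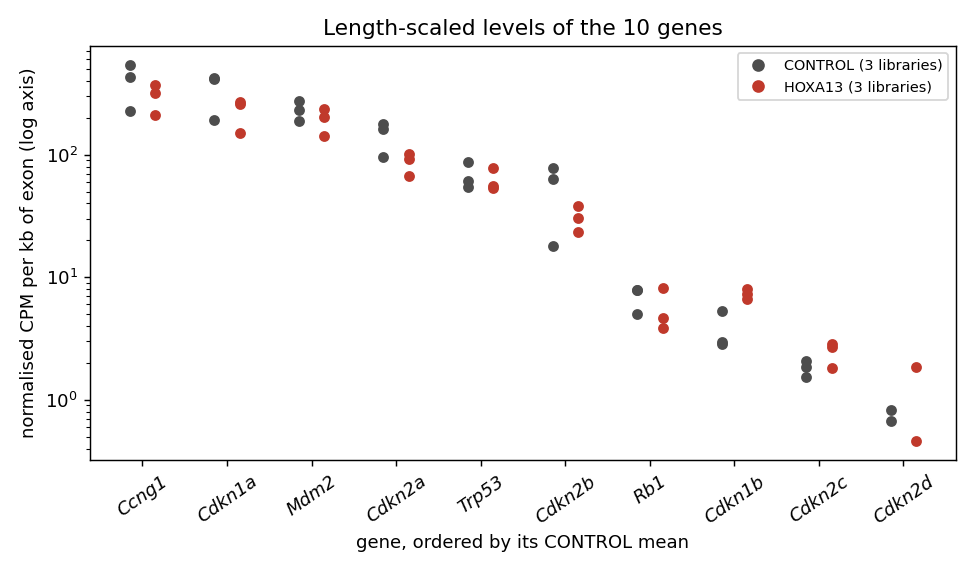
Normalised CPM per kb of exon (log axis) of the 10 genes, ordered by the CONTROL mean, with 1 point per library in grey for CONTROL and red for HOXA13. Ccng1 to Cdkn2b overlap in a chain between 17.9 and 542 CPM per kb, and the other 4 genes lie at 8.16 or less; the 2 libraries of Cdkn2d with no count are left off the log axis.

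Across all 6 libraries, 0 of the 10 genes passed an adjusted p of 0.05 in edgeR's quasi-likelihood test, in which 0.309% of the 13600 tested genes passed. At an unadjusted p under 0.05 there were 2, Cdkn1b (higher in HOXA13) and Cdkn2a (lower), beside 14.1% of all tested genes. DESeq2 called 0 of the 10 and 5.05% of its genes, and limma voom with sample quality weights called 2, the same Cdkn1b and Cdkn2a, and 15.4%. Fitted values were higher in HOXA13 for 3 members and lower for 7, with a median log2 fold change of -0.28 against -0.01 over all tested genes. That median was -0.53 without HOXA13 replicate 2, -0.46 without CONTROL replicate 2 and -0.17 without HOXA13 replicate 1. Cdkn1b was the 1 member whose groups did not overlap; 11.5% of tested genes had all HOXA13 libraries above all CONTROL libraries and 8.52% the reverse.

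**Figure D2:**
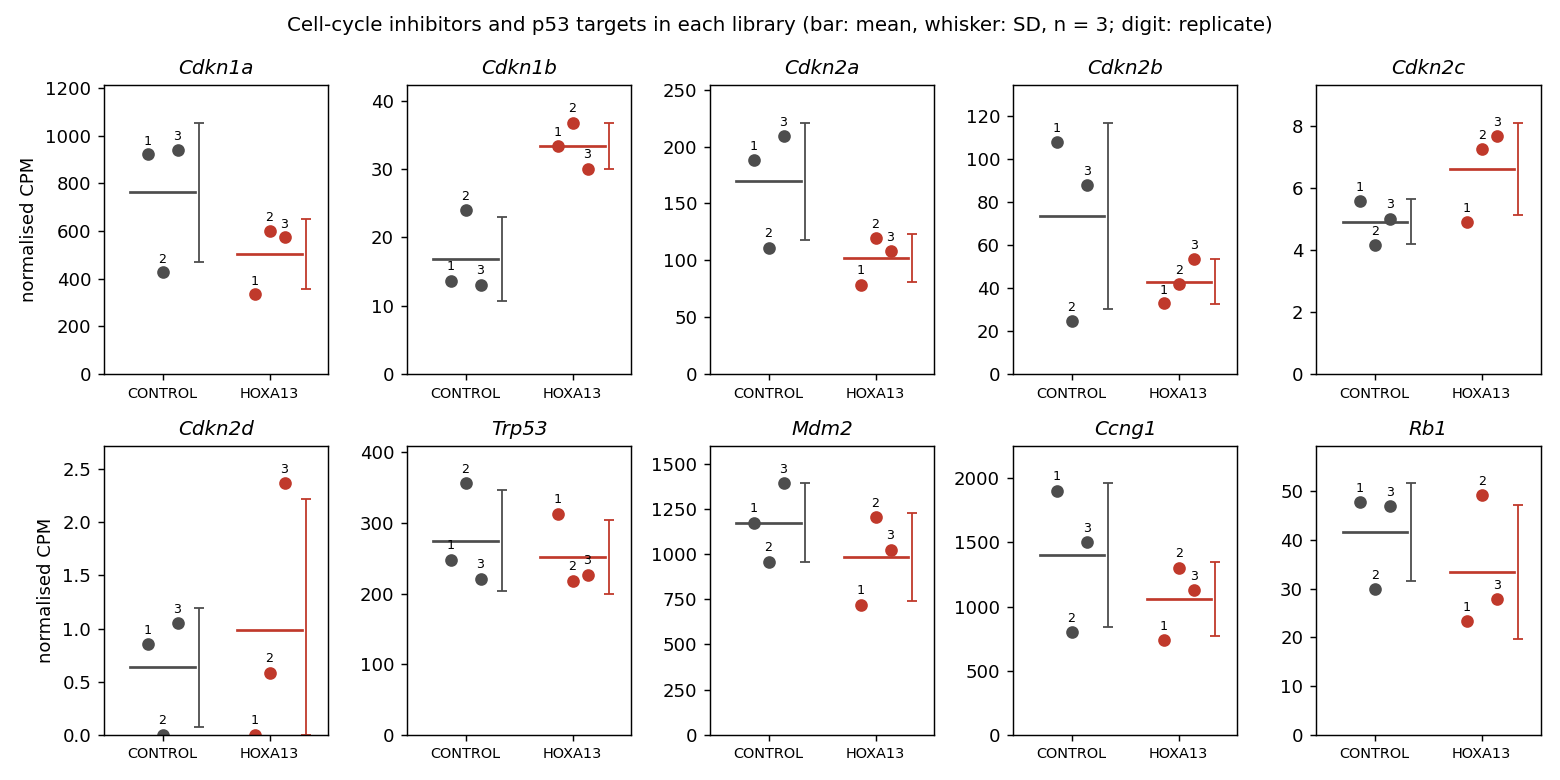
Normalised CPM of each gene (linear axes from 0), with points for CONTROL (grey) and HOXA13 (red) libraries numbered by replicate, a bar at the group mean and a whisker of 1 SD (n = 3, cut at 0 for Cdkn2d). CONTROL replicate 2 and HOXA13 replicate 1 are the 2 lowest points for Cdkn1a, Cdkn2b, Cdkn2c, Cdkn2d, Mdm2 and Ccng1, and only for Cdkn1b do all HOXA13 points (30.0 to 36.8) lie above all CONTROL points (13.1 to 24.0).

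Cdkn1b encodes p27, a Cip/Kip inhibitor that holds resting cells in G1 (mm9 chromosome 6, 134870419 to 134875531, plus strand). It measured 13.6, 24.0 and 13.1 CPM in CONTROL replicates 1 to 3 against 33.4, 36.8 and 30.0 CPM in HOXA13 replicates 1 to 3. Every HOXA13 library was above every CONTROL library, and CONTROL replicate 2 was the nearest of its group. The group means were 16.9 ± 6.16 and 33.4 ± 3.39 CPM (SD, n = 3). The log2 fold change was 0.98 with a standard error of 0.29, a 95% interval of 0.31 to 1.66 and an edgeR adjusted p of 0.186. The third gene of this family, Cdkn1c (p57), measured 73.6, 164 and 108 CPM in CONTROL against 226, 127 and 149 CPM in HOXA13. Its groups overlapped, with a log2 fold change of 0.54 ± 0.32 (standard error) and an adjusted p of 0.523 in edgeR.

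Cdkn1a encodes p21, the Cip/Kip inhibitor through which p53 arrests the cycle (mm9 chromosome 17, 29227924 to 29237667, plus strand). It measured 921, 426 and 941 CPM in CONTROL against 334, 602 and 573 CPM in HOXA13. CONTROL replicate 2 lay below HOXA13 replicates 2 and 3, so the groups overlapped, while CONTROL replicates 1 and 3 were above every HOXA13 library. The log2 fold change was -0.60 ± 0.34 (standard error), with a 95% interval of -1.39 to 0.19 and an edgeR adjusted p of 0.496. The tested genes whose log2 CPM followed it most closely over the 6 libraries were Glipr2, Picalm and Bicd2, with Pearson's r of 0.998, 0.998 and 0.995 among 10724 genes searched. With 6 points and so many genes searched, values this high are a description only.

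Cdkn2a encodes p16, an INK4 inhibitor, and Arf from shared exons, and the counts give 1 value for both (mm9 chromosome 4, 88920377 to 88940557, minus strand). It measured 188, 111 and 209 CPM in CONTROL against 78.8, 119 and 108 CPM in HOXA13. Only HOXA13 replicate 2 lay above the lowest CONTROL library, replicate 2. The log2 fold change was -0.73 ± 0.27 (standard error), with a 95% interval of -1.34 to -0.12 and an edgeR adjusted p of 0.272. Its closest genes over the 6 libraries were Cep290, Smap2 and Gfod2 (Pearson's r of 0.997, 0.997 and 0.995). Cdkn2b, the gene of the INK4 inhibitor p15, lies 11640 bases from it on the same strand (mm9 chromosome 4, 88952198 to 88956941). It measured 108, 24.9 and 88.0 CPM in CONTROL against 32.8, 42.1 and 53.7 CPM in HOXA13. CONTROL replicate 2 was the lowest library of all and the other 2 CONTROL libraries the highest. Cdkn2b had a log2 fold change of -0.78 ± 0.48 (standard error) and an edgeR adjusted p of 0.532.

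The remaining INK4 genes were near the lower end of the data. Cdkn2c (p18, mm9 chromosome 4) measured 5.60, 4.16 and 5.02 CPM in CONTROL against 4.92, 7.26 and 7.70 CPM in HOXA13, with overlapping groups and a log2 fold change of 0.43 ± 0.42 (standard error; edgeR adjusted p 0.726). Cdkn2d (p19, mm9 chromosome 9) had 12, 0 and 14 counts in CONTROL against 0, 10 and 39 counts in HOXA13, with a 95% interval of the log2 fold change from -3.19 to 4.45. Its whole longest transcript of 1271 bases also matched a second place on chromosome 9 of mm9, in a stretch of 872 bases at 99.9% identity among others, annotated as Gm4694. Reads from such a pair cannot be assigned to 1 of the copies, how the counting treated them was not stated, and the value of Cdkn2d is therefore uncertain. For Trp53, 62.7% of the longest transcript matched a second place, with 95.1% identity over 1177 bases (Trp53-ps on chromosome 17), and 6.78% of that of Ccng1 did so. No such match of at least 75 bases at 95% identity was found for the other 7 genes.

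Trp53 itself had the fold change nearest to 0 of the 10 genes (mm9 chromosome 11, 69393861 to 69405375, plus strand). It measured 248, 356 and 221 CPM in CONTROL against 313, 218 and 226 CPM in HOXA13. The 2 highest libraries were CONTROL replicate 2 and HOXA13 replicate 1, and the groups overlapped. The log2 fold change was -0.12 ± 0.23 (standard error), with a 95% interval of -0.66 to 0.41 and an edgeR adjusted p of 0.865. Zfp41, Rfc2 and Atp6v1b2 followed it most closely over the 6 libraries (Pearson's r of 0.992, 0.989 and 0.989).

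Mdm2, the ubiquitin ligase that p53 induces against itself (mm9 chromosome 10, minus strand), measured 1173, 958 and 1391 CPM in CONTROL against 720, 1203 and 1024 CPM in HOXA13. Its log2 fold change was -0.26 ± 0.23 (standard error), with an edgeR adjusted p of 0.694. Ccng1, the gene of cyclin G1, an early described p53 target (mm9 chromosome 11, 40562054 to 40568813, minus strand), measured 1903, 800 and 1499 CPM in CONTROL against 740, 1302 and 1127 CPM in HOXA13. Both genes were lowest in HOXA13 replicate 1 and next lowest in CONTROL replicate 2, the 2 libraries in which Trp53 was highest. Ccng1 had a log2 fold change of -0.41 ± 0.33 (standard error) with an edgeR adjusted p of 0.664. Rb1, the pocket protein that restrains E2F (mm9 chromosome 14, minus strand), measured 47.7, 29.9 and 47.0 CPM in CONTROL against 23.3, 49.1 and 27.9 CPM in HOXA13. HOXA13 replicate 2 was its highest library and the other 2 HOXA13 libraries its lowest, and the log2 fold change was -0.31 ± 0.33 (standard error; edgeR adjusted p 0.745). With each chromosome's median as an offset, its log2 fold change was -0.73 with an edgeR adjusted p of 0.530. The exons of Rb1 share 408 bases with Lpar6 and 488 with Rcbtb2 on the opposite strand, and with the strand setting of the counting not stated, reads from these stretches cannot be told apart. Lpar6 held at least 43.6 CPM and Rcbtb2 at least 38.4 CPM in every library. Per kb of exon, Lpar6 had group means of 25.4 in CONTROL and 21.8 in HOXA13, and Rcbtb2 had 6.43 and 5.60. Rb1 had 6.90 and 5.56 on that scale.

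**Figure D3:**
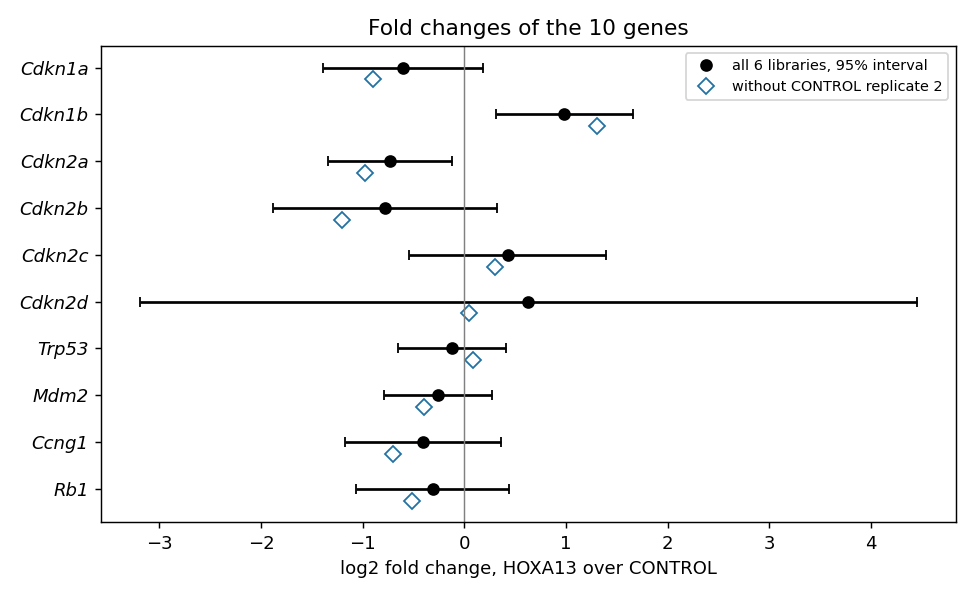
Log2 fold change of HOXA13 over CONTROL for each gene with its 95% interval in edgeR over all 6 libraries (black), and the value without CONTROL replicate 2 (open blue diamonds). The interval lies above 0 for Cdkn1b and below 0 for Cdkn2a and includes 0 for the other 8 genes. The diamonds of Cdkn1a, Cdkn1b, Cdkn2a, Cdkn2b, Mdm2, Ccng1 and Rb1 lie farther from 0 than the black points. Those of Cdkn2c and Cdkn2d lie nearer to 0, and that of Trp53 lies on the other side of it.

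Ratios of CPM within a library show how the p53 targets stood against Trp53 without any scaling between libraries. They were not divided by exon length, so they compare libraries and not levels between genes. Cdkn1a over Trp53 was 3.71, 1.20 and 4.26 in CONTROL against 1.07, 2.76 and 2.53 in HOXA13. For Mdm2 over Trp53 the ratios were 4.73, 2.69 and 6.30 in CONTROL against 2.30, 5.52 and 4.52 in HOXA13, and for Ccng1 over Trp53 they were 7.67, 2.25 and 6.79 against 2.37, 5.98 and 4.98. All 3 ratios were lowest in CONTROL replicate 2 and HOXA13 replicate 1, 1 library of each group, so they separated those libraries from the other 4 and not HOXA13 from CONTROL. Other pairs of members kept a steadier ratio. Cdkn1a over Cdkn2a varied 1.38-fold between its lowest and highest library and Cdkn1a over Ccng1 1.39-fold, while Cdkn1b over Cdkn2b varied 8.05-fold.

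Marker genes of other cell types moved with the same libraries. The summed level of 20 mesenchymal markers, such as Vim and the collagen genes, was 12102, 2009 and 8767 CPM in CONTROL against 1139, 2329 and 1945 CPM in HOXA13, and 17 of the 19 tested were lower in HOXA13. CONTROL replicates 1 and 3 were highest in these markers as in Cdkn1a, Cdkn2a, Cdkn2b and Ccng1, and HOXA13 replicate 1 was lowest in them as in Cdkn1a, Cdkn2a, Mdm2, Ccng1 and Rb1. Of the mesenchymal markers, Lum had no count in 5 of the 6 libraries and Acta2 none in HOXA13 replicate 1. The 12 pluripotency markers summed to 119, 1449 and 203 CPM in CONTROL against 743, 457 and 442 CPM in HOXA13, and CONTROL replicate 2 and HOXA13 replicate 1, the libraries with most Trp53, were the 2 highest. Pou5f1 was at 310 and 75.9 CPM in those 2 libraries and at 0.851 to 15.3 CPM in the others. Klf4 alone gave 93.0, 252 and 132 CPM of the pluripotency sums in CONTROL and 242, 279 and 226 CPM in HOXA13. It was highest in HOXA13 replicate 2 and did not follow the order of the sums. The 20 proliferation markers, all 20 with a higher fitted value in HOXA13, summed to 1542, 3479 and 1435 CPM in CONTROL against 3641, 2938 and 2939 CPM in HOXA13. The 12 epithelial markers, all with a higher fitted value in HOXA13, 9 of them without overlap between the groups (11.5% over all tested genes) and none at 0 in any library, summed to 2205 to 8077 CPM in CONTROL against 10012 to 11798 CPM in HOXA13, the same order of groups as Cdkn1b. The 12 markers of mesonephric mesenchyme, chosen for the M15 feeder, summed to 13.6 to 42.5 CPM over all 6 libraries. The lowest edgeR adjusted p among all these markers was 0.102, and 8 of the 19 tested mesenchymal, 8 of the 12 epithelial, 4 of the 20 proliferation, 0 of the 11 pluripotency, 1 of the 9 mesonephric and 1 of the 9 definitive endoderm markers had an unadjusted p under 0.05, beside 14.1% of all tested genes. Krt19 of the epithelial list, the gene with that lowest adjusted p, and Nek2 of the proliferation list were reported by the study as raised by HOXA13 in these cells. Counts for both lists are therefore not independent of that report. The part of these cell types in the levels of the 10 genes was not tested.

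**Figure D4:**
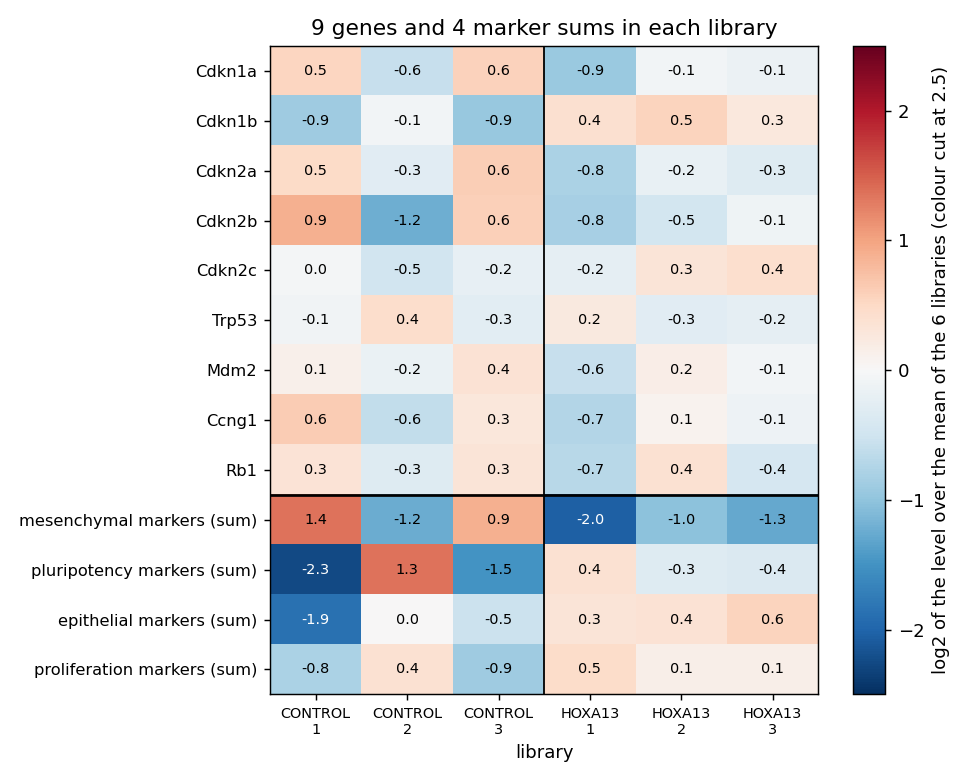
Log2 of the level in each library over the mean of the 6 libraries, for 9 of the genes (Cdkn2d, with libraries at 0, is left out) and for the summed CPM of 4 marker lists, from blue (below the mean) to red (above it). CONTROL replicate 2 and HOXA13 replicate 1 are blue for Cdkn1a, Cdkn2a, Cdkn2b, Cdkn2c, Mdm2, Ccng1, Rb1 and the mesenchymal sum, and red for Trp53, the pluripotency sum and the proliferation sum.

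Without CONTROL replicate 2 the comparison changed. In edgeR on the other 5 libraries, 4 of the 10 genes passed an adjusted p of 0.05, beside 14.2% of the 14084 genes tested. Cdkn1b was higher in HOXA13 with a log2 fold change of 1.31 (adjusted p 0.00840), and Cdkn1a at -0.90 (adjusted p 0.0356), Cdkn2a at -0.97 (adjusted p 0.0121) and Cdkn2b at -1.21 (adjusted p 0.00978) were lower, all by edgeR. The groups then did not overlap for 5 members. Cdkn1b was higher, as were 24.8% of all tested genes, and Cdkn1a, Cdkn2a, Cdkn2b and Ccng1 were lower, as were 23.9%. With HOXA13 replicate 2 left out instead, Cdkn1b was without overlap and higher (14.9% over all tested genes) and Cdkn2a and Rb1 were without overlap and lower (12.9%). With HOXA13 replicate 1 left out, Cdkn1b and Cdkn2c were without overlap and higher (16.5%) and no member was so and lower (13.2%). Without CONTROL replicate 2, Ccng1 reached an edgeR adjusted p of 0.0773 and a log2 fold change of -0.70, Mdm2 -0.40 with an adjusted p of 0.258, and Trp53 changed sign to 0.089. The 2 CONTROL libraries left in that fit were those with the highest mesenchymal sums, and which of the 3 CONTROL libraries stands for the group cannot be told from these data.

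Of 32 other p53 targets, all tested, 0 passed the adjusted threshold in edgeR, with 4 higher and 2 lower in HOXA13 at an unadjusted p under 0.05 (14.1% over all tested genes). DESeq2 called 3, Phlda3 and Plk3 higher and Pidd1 lower (5.05% over all), and limma voom called 6 (15.4% over all). The groups did not overlap for 5 with HOXA13 higher (Phlda3, Plk3, Sfn, Slc19a2 and Tigar; 11.5% over all) and for 4 with HOXA13 lower (Gadd45a, Pidd1, Plk2 and Sesn1; 8.52% over all), and the median log2 fold change of the list was -0.15. Sfn, the gene of 14-3-3 sigma, a G2 inhibitor found in epithelia, measured 113, 494 and 254 CPM in CONTROL against 739, 560 and 728 CPM in HOXA13 (log2 fold change 1.24, edgeR adjusted p 0.277). Plk3, a stress kinase, measured 37.1, 102 and 82.1 CPM in CONTROL against 132, 150 and 214 CPM in HOXA13 (log2 fold change 1.16, edgeR adjusted p 0.205). In both genes CONTROL replicate 2 was the CONTROL library closest to HOXA13. Phlda3, an inhibitor of Akt, measured 286, 259 and 349 CPM in CONTROL against 425, 589 and 592 CPM in HOXA13 (log2 fold change 0.85, edgeR adjusted p 0.116). Sesn1, a stress-induced restraint on mTORC1, was lower, at 10.9, 14.4 and 10.9 CPM in CONTROL against 2.07, 9.08 and 5.88 CPM in HOXA13 (log2 fold change -1.08, edgeR adjusted p 0.415). Genes of the list that promote cell death had log2 fold changes of -0.13 (Bax), -0.18 (Bbc3), 0.01 (Pmaip1), 0.32 (Perp), -1.55 (Fas), 0.12 (Tnfrsf10b), -0.29 (Apaf1), 0.22 (Aen), -0.60 (Eda2r), -0.31 (Ei24), -0.17 (Trp53inp1) and -0.80 (Pidd1), with overlapping groups for all but Pidd1. Pidd1 measured 94.6, 65.9 and 91.8 CPM in CONTROL against 39.6, 58.6 and 46.9 CPM in HOXA13 (edgeR adjusted p 0.170).

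Among the p53 family and its regulators, 17 of 19 genes could be tested and 0 passed in edgeR, with 2 higher and 1 lower at an unadjusted p under 0.05 (14.1% over all tested genes). DESeq2 called 0 of them (5.05% over all) and limma voom 2 (15.4% over all), Mdm4 higher and Rpl5 lower. The groups did not overlap for 3 with HOXA13 higher (11.5% over all) and for 1 with HOXA13 lower (8.52% over all). Mdm4, the partner of Mdm2 that masks p53, measured 78.1, 126 and 88.0 CPM in CONTROL against 152, 158 and 157 CPM in HOXA13 without overlap (log2 fold change 0.67, edgeR adjusted p 0.186). Mdm2 itself overlapped between the groups with a fold change of opposite sign. The p53 ligase gene Cop1 (listed as Rfwd2; log2 fold change 0.67, edgeR adjusted p 0.374) and the acetyltransferase gene Kat5 (0.52, edgeR adjusted p 0.311) were also without overlap and higher. Rpl5, a ribosomal protein that binds Mdm2, was without overlap and lower, with 40.8 to 48.5 CPM in CONTROL against 26.8 to 31.2 CPM in HOXA13 (log2 fold change -0.59, edgeR adjusted p 0.213). The p53 relatives Trp63 and Trp73 were too low to test, at most 0.750 and 2.46 CPM.

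Of 26 other G1 genes (cyclins, kinases, pocket proteins and E2F factors), 0 passed in edgeR, with 1 higher and 1 lower at an unadjusted p under 0.05 (14.1% over all tested genes). DESeq2 called 0 and limma voom 5 (15.4% over all), and the median log2 fold change was 0.04. Rbl1 (p107), the pocket protein of cycling cells, measured 10.1, 11.2 and 8.77 CPM in CONTROL against 26.6, 16.5 and 15.7 CPM in HOXA13 (log2 fold change 0.96, edgeR adjusted p 0.221). Its relative Rbl2 (p130), the form of resting cells, measured 19.8, 7.20 and 11.6 CPM against 6.38, 11.5 and 8.91 CPM with overlapping groups (-0.52, edgeR adjusted p 0.671). Rb1 thus shared the sign of Rbl2 and not that of Rbl1, and neither Rb1 nor Rbl2 separated the groups. Ccnd1 (cyclin D1), which Cdk4 and Cdk6 need and the INK4 proteins counter, measured 254, 231 and 215 CPM in CONTROL against 185, 147 and 129 CPM in HOXA13 (-0.60, edgeR adjusted p 0.185). Cdkn3, a phosphatase acting on Cdk2, was at 2.70 to 6.69 CPM (0.54, edgeR adjusted p 0.723). The 5 genes called by limma voom were also the 5 called by edgeR without CONTROL replicate 2 (14.2% over all genes of that fit), with values there of Ccne1 (log2 fold change 1.19), Ccne2 (1.05) and Ccna2 (1.19), the cyclins that drive S phase, all higher, and of the D cyclins Ccnd1 (-0.63) and Ccnd2 (-1.87), both lower. With all 6 libraries the log2 fold changes were 0.43 for Ccne1, 0.32 for Ccne2, 0.38 for Ccna2 and -1.40 for Ccnd2, with overlapping groups and edgeR adjusted p of 0.387 or more, and CONTROL replicate 2 was the highest library for Ccne1, Ccne2 and Ccna2. They were named after their values were seen.

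Of 17 regulators of the Cdkn2a-Cdkn2b locus, 0 passed in edgeR, with 1 higher and 3 lower at an unadjusted p under 0.05 (14.1% over all tested genes), and the median log2 fold change was -0.26. DESeq2 called 1, Ets2 (5.05% over all), and limma voom 4 (15.4% over all), Ets2 and Suz12 higher and Ets1 and Tbx2 lower. Ets2, a factor known to activate Cdkn2a, measured 61.6, 85.2 and 88.7 CPM in CONTROL against 139, 219 and 219 CPM in HOXA13, a log2 fold change of 1.29 with an edgeR adjusted p of 0.0759, while Cdkn2a had a fold change of opposite sign. Its relative Ets1, also an activator of the locus, measured 230, 139 and 233 CPM in CONTROL against 151, 129 and 118 CPM in HOXA13 with overlapping groups, and its log2 fold change of -0.60 (edgeR adjusted p 0.288) had the sign of Cdkn2a. Tbx2, a repressor of the locus, was at 9.29, 3.84 and 9.52 CPM in CONTROL against 2.92, 3.75 and 0.970 CPM in HOXA13 (log2 fold change -1.57, edgeR adjusted p 0.329). Polycomb genes of the list, whose products silence the locus in stem cells, overlapped between the groups, and log2 fold changes were -0.02 for Bmi1, -0.44 for Cbx2, -1.09 for Cbx7, -0.49 for Cbx8, -0.08 for Ezh2, 0.16 for Eed, 0.42 for Suz12 and -0.26 for Kdm2b, with edgeR adjusted p of 0.311 or more.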

How the data were processed

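The authors prepared stranded poly-A libraries, sequenced reads of 75 bases, aligned them to mm9 with TopHat and counted them per gene with HTSeq (0.6.1p1 in the submitters' processing notes), and the deposited values are raw counts per gene symbol. The processing notes give TopHat2 2.0.14. The annotation, strand setting and handling of reads with several alignments are not given in the sources used here. Groups and replicate numbers come from the sample titles. Nothing in the labels says which clone each library came from, so p-values measure the spread between these 3 and 3 samples only.

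The test of these counts was edgeR 4.0.16 under R 4.3.3 (filterByExpr with a minimum count of 10 and a minimum total of 15, which kept 13600 genes, trimmed mean of M-values scaling, glmQLFit and glmQLFTest on the group, Benjamini-Hochberg adjustment over all tested genes, threshold 0.05). Standard errors and 95% intervals were derived from the F statistic and its degrees of freedom. DESeq2 1.42.0, limma 3.58.1 voom with sample quality weights, other scalings and filters, a replicate block, a chromosome offset and the omission of each library were the alternatives. The genes and lists were chosen with earlier results of these data known. Of each list, up to 4 genes were named, those of largest fold change whose groups did not overlap and whose mean reached 5 CPM, besides Cdkn1c, Cdkn3, Rbl1, Rbl2, Mdm4, Trp63 and Trp73. Other genes named (death and Polycomb genes of the lists, markers, other genes without overlap and genes called under an alternative) were chosen after their values were seen. Positions and exon lengths are those of GENCODE M1 on mm9. Motifs were searched in RefSeq windows of GRCm38.p6, and transcripts were searched against mm9 with BLAST 2.17.0. Tested on simulated counts for the real genes (13166 genes), the edgeR fit called 65.1% of genes changed 4-fold and 2.88% of those changed 2-fold, and 4.84% of its calls were false. Each simulated gene was drawn independently, so no simulated library stood apart over many genes as CONTROL replicate 2 did. Those shares therefore need not hold for the real libraries. The values of 1 regulator of the Cdkn2a-Cdkn2b locus are not reported here.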

Additional observations from a re-analysis of the deposited data

How the results depend on the processing

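The number of members past the threshold was 0 in edgeR with all 6 libraries and 2 in limma voom, and ranged from 0 to 4 when 1 library was left out, the 4 without CONTROL replicate 2. For the other p53 targets the count of 0 became 3 in DESeq2 and 6 in limma voom and ranged from 0 to 6 with 1 library left out. For the p53 family and regulators it became 2 in limma voom (0 to 1 with 1 library left out), and for the G1 genes 5 in limma voom (0 to 5). For the regulators of the Cdkn2a-Cdkn2b locus it became 1 in DESeq2, 4 in limma voom and 1 without a filter on low counts (0 to 3). The highest count of each range was that without CONTROL replicate 2. The number of members without overlap between the groups was 1 and ranged from 1 to 5 with 1 library left out. It was 5 without CONTROL replicate 2 (24.8% of all tested genes higher and 23.9% lower), 3 without HOXA13 replicate 2 (14.9% and 12.9%) and 2 without HOXA13 replicate 1 (16.5% and 13.2%). The log2 fold change of Trp53 changed sign, between -0.32 and 0.089 with 1 library left out, as did that of Cdkn2d, between -1.08 and 1.19, while those of the other 8 members kept their sign under all 15 alternatives. The cause of these shifts was not tested. Over all genes the count of 42 was 722 in DESeq2, 2101 in limma voom, 106 with the method that edgeR 4 introduced, 9 for genes averaging 50 counts or more, 163 without a filter, 1 with the chromosome offset, and 0 to 2006 with 1 library left out.

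The labels do not say whether equal replicate numbers pair the samples. The mean correlation of deviations from the group means was -0.14 for equal numbers and 0.08 for unequal ones. Deviations within a group cancel, so these means are tied to each other and cannot show whether the samples were paired. An edgeR model with the replicate block called 0 members and 0 genes in all, with 1392 at an unadjusted p under 0.05. At this depth and spread (biological coefficient of variation 41.5%) a 2-fold change was rarely called in the simulation, so an adjusted p above the threshold does not show that a level was equal. Genes on chromosome 14, where Rb1 lies, had log2 fold changes with a median of 0.33, and those on chromosome 11, with Trp53 and Ccng1, a median of -0.17. With the chromosome offset the log2 fold change was -0.73 for Rb1 (-0.31 without it), -0.23 for Ccng1 (-0.41) and -0.02 for Trp53 (-0.12), and 0 members were called.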
